A study of Mus musculus with 24 samples.

Results

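The 39 Hox genes of the mouse are homeobox transcription factors that lie in 4 clusters. They were taken as every gene whose name in the expression tables is Hox, a cluster letter from a to d and a number, 39 of 46078 genes in the tables of the treated embryos and their controls and of 55573 in the table of oocytes and late 2-cell embryos. Members at or near 0 were kept. Cluster A (chromosome 6, minus strand) holds 11 of them, cluster B (chr11:96194316-96368256, plus strand) 10, cluster C (chr15:102921103-103036852, plus strand) 9 and cluster D (chr2:74668310-74765142, plus strand) 9, in mm10 coordinates of GENCODE vM21. The number in a gene's name is its paralogue group, and below, numbers 1 to 3 are called anterior (8 genes), 4 to 8 central (15 genes) and 9 to 13 posterior (16 genes).

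Hox proteins give cells of the embryo their position along the head-to-tail axis, and the order of the genes along each cluster follows the order of the body regions in which they act. Before that time the clusters are classic targets of the Polycomb system, in which PRC1 ubiquitinates histone H2A (H2AK119ub) and PRC2 methylates lysine 27 of histone H3 (H3K27me3). Trithorax proteins such as the KMT2 methyltransferases act in the opposite direction.

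RNA was sequenced from pools of preimplantation embryos or oocytes, in 24 libraries that form 12 groups of 2, to ask how loss of H2AK119ub or of H3K27me3 alters the transcriptome. PR-DUB, the BAP1-ASXL complex that takes ubiquitin off H2A, was overexpressed (OE) in B6/DBA x PWK embryos with a control (CTR) at the 2-cell stage (15 embryos a library) and the 4-cell stage (19 in CTR and 16 in OE). KDM6B, a demethylase of H3K27, was overexpressed with a CTR in B6/DBA x PWK embryos at the 2-cell stage (17 or 18 embryos) and the 4-cell stage. In the Eed experiment, 4-cell embryos of the B6/129mixed x PWK background came from Eed CKO mothers (matKO) or Eed CTR mothers. EED is a core subunit of PRC2, and the labels name no Cre driver. Untreated MII oocytes were B6/DBA and untreated late 2-cell embryos B6/DBA x B6/DBA. Parents of the PR-DUB and KDM6B embryos are labelled WT x WT, and what was given to the CTR embryos of either experiment is not stated. Separate collections are not stated for the 2 libraries of a group either, so p-values measure the spread between libraries, which may be technical.

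The labels conflict in 2 places. The manipulation field of the KDM6B OE 2-cell libraries names PR-DUP (OE), and the titles of the Eed matKO libraries say OE; the titles were followed for the first and the manipulation field for the second. Kdm6b RNA was at 14240 and 9809 FPKM in the KDM6B OE 2-cell libraries and at 14590 and 14740 FPKM in their CTR, against 21.1 to 26.4 FPKM in the PR-DUB 2-cell libraries. At the 4-cell stage Kdm6b was at 597 and 547 FPKM in OE and 571 and 401 FPKM in CTR. The targeted RNA is thus as high in the libraries labelled KDM6B CTR as in those labelled OE. Eed was at 22.7 and 26.9 FPKM in matKO and 28.5 and 33.1 FPKM in its CTR, a gene-level value that does not show a deleted exon. For PR-DUB, Bap1 was at 18.29 and 16.07 FPKM in CTR and 22.02 and 20.26 in OE at the 2-cell stage. At the 4-cell stage Bap1 was at 6.022 and 6.197, then 10.64 and 8.808. Asxl1 was at 17.23 and 16.79 FPKM in CTR and 17.58 and 16.05 in OE at the 2-cell stage. At the 4-cell stage Asxl1 was at 12.86 and 12.24, then 7.596 and 10.85. These values do not by themselves show that PR-DUB was overexpressed. All 9 oocyte markers (Zp3, Gdf9, Dppa3 and others) were above 0 in every library, with a summed level of 4766 and 4711 FPKM in MII oocytes and 1102 to 1943 FPKM in the embryo libraries. Of 5 cleavage markers (Pou5f1, Tfap2c, Klf17, Gata6 and Tead4), Tead4 was at 0 in 1 MII library, and all were above 0 in the embryo libraries.

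The bases just upstream of 6 transcription start sites show the kind of sequence involved. Hoxd9, Hoxd10, Hoxd11 and Hoxd12 are neighbours in cluster D of which 3 are among the genes called below and Hoxd12 is listed at 0 in all 8 PR-DUB libraries. Hoxa13 had the largest log2(FPKM + 1) difference of 4-cell PR-DUB OE from its CTR, and Hoxa7 had the highest group mean. Each line gives the 250 bases upstream of the start site in RefSeq (GRCm38.p6), which can lie apart from the end of the GENCODE span, 5′ to 3′ on the gene's strand, with every CG dinucleotide in capitals. Hoxa7 is chr6:52218574-52218823 (minus strand), Hoxa13 chr6:52260881-52261130 (minus), Hoxd9 chr2:74697513-74697762 (plus), Hoxd10 chr2:74691641-74691890 (plus), Hoxd11 chr2:74679308-74679557 (plus) and Hoxd12 chr2:74674763-74675012 (plus).
Hoxa7: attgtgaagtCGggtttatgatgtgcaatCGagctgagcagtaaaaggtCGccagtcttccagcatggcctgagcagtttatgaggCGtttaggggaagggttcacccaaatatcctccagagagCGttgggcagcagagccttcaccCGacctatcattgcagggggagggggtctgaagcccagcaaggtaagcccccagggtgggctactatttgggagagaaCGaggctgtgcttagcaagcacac
Hoxa13: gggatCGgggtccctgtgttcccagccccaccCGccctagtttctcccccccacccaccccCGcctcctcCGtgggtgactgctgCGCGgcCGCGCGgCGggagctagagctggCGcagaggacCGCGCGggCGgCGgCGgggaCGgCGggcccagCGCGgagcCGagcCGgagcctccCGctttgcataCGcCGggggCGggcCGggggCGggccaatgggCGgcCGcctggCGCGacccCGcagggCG
Hoxd9: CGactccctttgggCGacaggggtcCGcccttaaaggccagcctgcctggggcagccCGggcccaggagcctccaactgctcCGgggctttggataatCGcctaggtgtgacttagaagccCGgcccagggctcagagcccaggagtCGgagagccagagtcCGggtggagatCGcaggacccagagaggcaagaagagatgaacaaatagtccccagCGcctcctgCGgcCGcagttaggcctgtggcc
Hoxd10: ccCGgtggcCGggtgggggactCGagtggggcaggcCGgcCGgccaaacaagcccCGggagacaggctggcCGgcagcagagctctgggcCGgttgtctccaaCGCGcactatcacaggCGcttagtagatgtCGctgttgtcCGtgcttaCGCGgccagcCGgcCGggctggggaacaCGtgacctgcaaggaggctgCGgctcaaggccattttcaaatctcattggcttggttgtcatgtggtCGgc
Hoxd11: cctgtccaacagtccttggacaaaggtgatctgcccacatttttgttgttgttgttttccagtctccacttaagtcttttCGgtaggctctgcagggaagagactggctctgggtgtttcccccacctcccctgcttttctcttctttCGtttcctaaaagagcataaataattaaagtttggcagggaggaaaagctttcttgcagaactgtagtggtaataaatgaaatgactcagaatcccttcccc
Hoxd12: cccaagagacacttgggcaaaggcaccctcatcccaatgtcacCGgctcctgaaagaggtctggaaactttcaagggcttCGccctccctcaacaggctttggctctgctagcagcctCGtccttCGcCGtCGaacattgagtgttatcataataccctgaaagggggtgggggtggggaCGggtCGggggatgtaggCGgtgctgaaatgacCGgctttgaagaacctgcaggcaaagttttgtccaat
These 250 bases hold 35 CG dinucleotides at Hoxa13, 20 at Hoxd10, 13 at Hoxd9, 10 at Hoxd12, 7 at Hoxa7 and 2 at Hoxd11. Another RefSeq start of Hoxd11 lies inside the gene, and its 300-base window (250 bases before the start to 50 after it) holds 25. RefSeq windows were found for 22 members, 24 windows in all, and not for the others, among them Hoxa4, Hoxb2, Hoxb3, Hoxb5, Hoxb6, Hoxb7, Hoxb9, Hoxb13, Hoxc5, Hoxc6, Hoxc8, Hoxc9, Hoxc10, Hoxc11, Hoxc12 and Hoxc13. The median Hox window held 14.5 CG dinucleotides, against 7 over 32851 windows of all genes. The letters TATAAA, searched on both strands, were in 4 of 24 Hox windows (16.67%) and in 13.62% of all windows. The 9 windows of the 7 matched genes called in PR-DUB OE 4-cell embryos had a median of 20 CG dinucleotides (range 4 to 45). The 15 other Hox windows had a median of 14 (range 4 to 37), so the ranges overlap, and the difference was not tested. The other called genes, Hoxb13, Hoxc8, Hoxc9, Hoxc10 and Hoxc13, have no window.

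Hox RNA was scarce in the oocyte and at cleavage, with 1 exception. Levels are FPKM, fragments per kilobase and per M fragments, as the authors deposited them in 3 separate tables, so levels set side by side across experiments carry no test. Of the 39 members, 38 had a mean under 1 FPKM over the 16 PR-DUB and KDM6B libraries, and 38 were listed at 0 in at least 1 of the 24 libraries. Depth was between 11.5 and 20.5 M fragments a library if the smallest step of FPKM times length stands for 1 fragment, and PCR copies are not separate molecules, so such numbers cover counting error only. Hoxd9 at 1.42 FPKM in a PR-DUB OE 4-cell library then rests on about 37.4 fragments, and at 0.0768 FPKM in a CTR library on 2.

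Hoxa7, a central gene of cluster A (chr6:52214491-52221854) known from axial skeleton patterning, was the exception. It was at 10.3 and 13.5 FPKM in MII oocytes, 9.54 and 8.91 in late 2-cell embryos, 12.4 and 11.9 in PR-DUB CTR and 14.01 and 17.6 in KDM6B CTR 2-cell embryos. At the 4-cell stage it was at 0.221 and 0.488 FPKM in PR-DUB CTR, 1.86 and 1.73 in KDM6B CTR and 0.264 and 0.768 in Eed CTR. Every oocyte and 2-cell library was therefore above every 4-cell library. Hoxa7 shares its span with the antisense RNA Hoxaas3, and since counting by strand is not stated for these tables, reads of the 2 genes cannot be told apart.

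**Figure D1:**
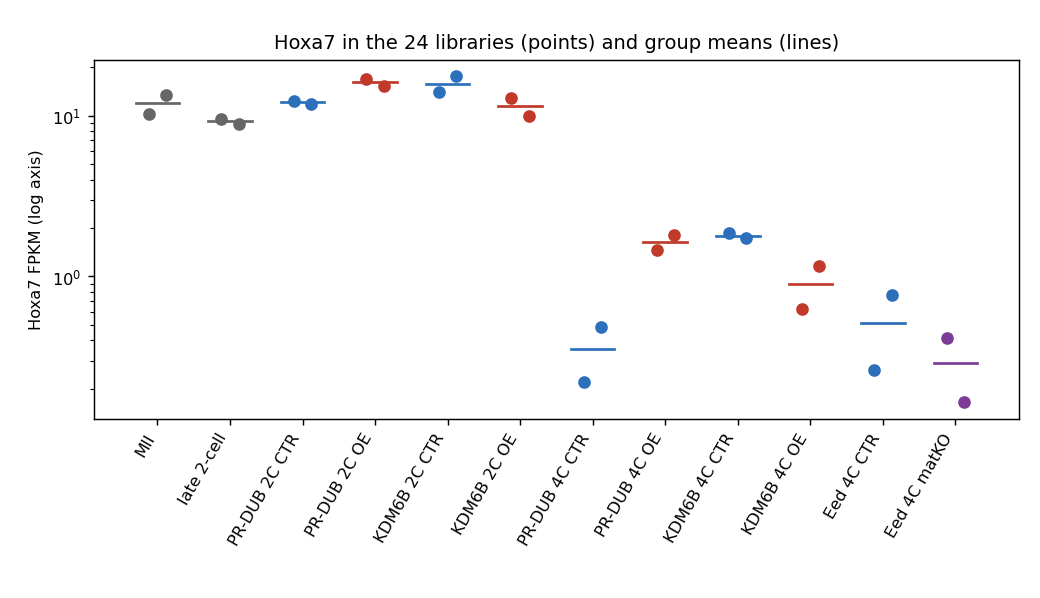
Hoxa7 level (FPKM, log axis) in each of the 24 libraries, with points for libraries and a line for each group mean. Grey marks untreated, blue CTR, red OE and purple matKO; the 12 oocyte and 2-cell libraries lie at 8.91 FPKM or more and the 12 libraries of 4-cell embryos at 1.86 FPKM or less.

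Among the next highest group means were those of Hoxb9 (2.12 FPKM, PR-DUB CTR 4-cell), Hoxa13 (1.76, PR-DUB OE 4-cell) and Hoxb13 (1.71, PR-DUB OE 4-cell). Of the 10 members with the highest group means, 7 had that mean in PR-DUB OE 4-cell embryos. In that group 27 of 39 members had a mean of at least 0.1 FPKM, against 8 in its CTR and 8 to 17 in the other 10 groups. The level of the 38 members without Hoxa7, summed per library, was 3.30 and 5.10 FPKM in MII oocytes and 3.17 and 2.99 in late 2-cell embryos.

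**Figure D2:**
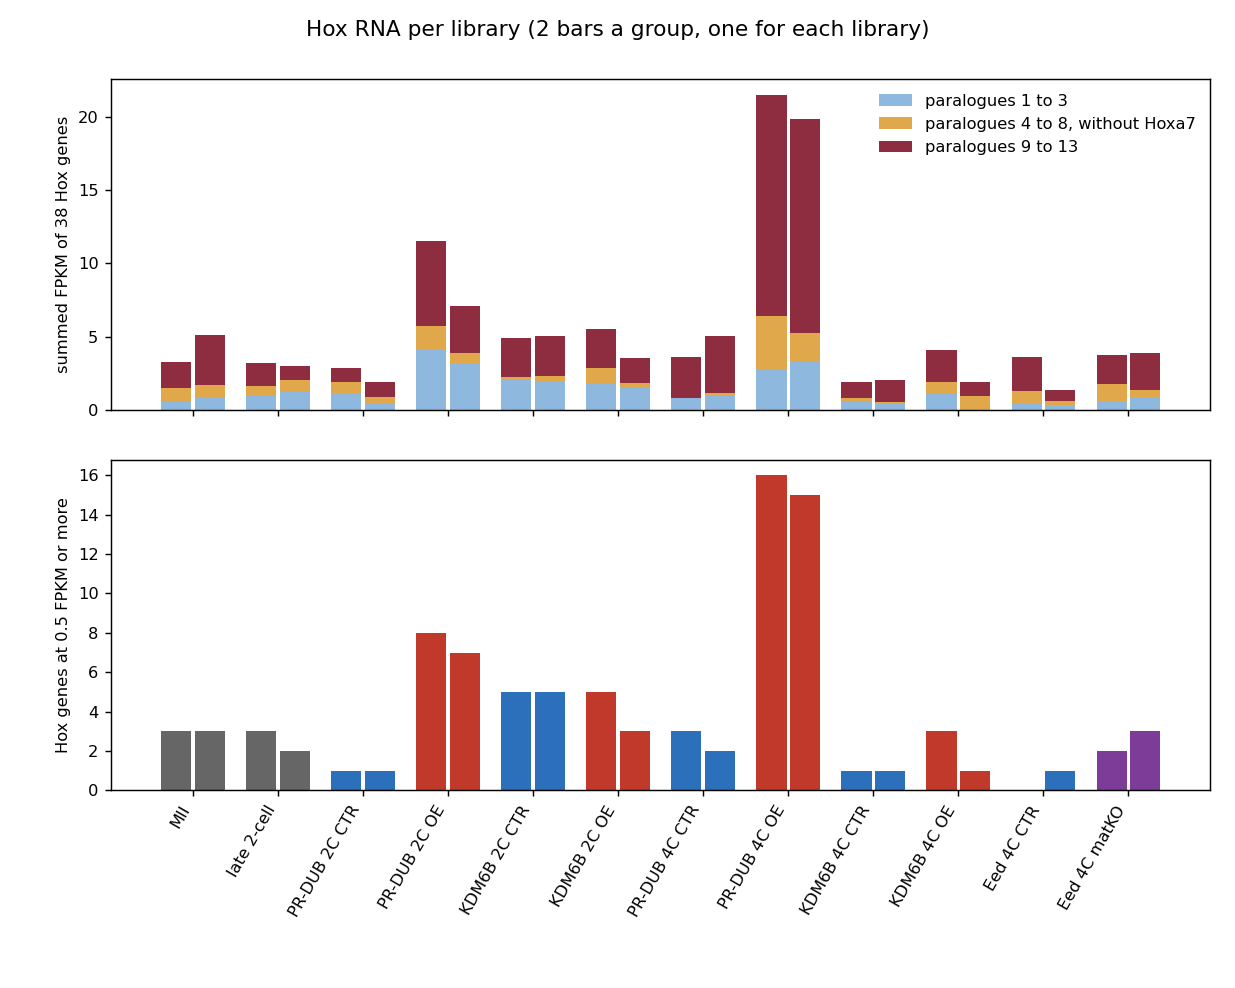
Upper panel, summed FPKM of 38 Hox genes (Hoxa7 left out) in each library, stacked by paralogue group; lower panel, number of the 39 Hox genes at 0.5 FPKM or more. In PR-DUB OE the sums are 11.5 and 7.12 FPKM at the 2-cell stage and 21.5 and 19.9 at the 4-cell stage, and in every other library 5.50 or less. Blue bars are CTR, red OE, purple matKO and grey untreated.

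In PR-DUB OE 4-cell embryos, Hox genes of all 4 clusters were higher than in CTR, and most of those called were posterior. The sum of the 38 members was 3.64 and 5.02 FPKM in CTR and 21.5 and 19.9 in OE, a ratio of means of 4.78. By class the ratio was 3.32 for anterior and 4.43 for posterior genes. For central genes without Hoxa7 it was 34.0, from a CTR mean sum of only 0.084 FPKM. The number of members at 0.5 FPKM or more was 3 and 2 in CTR and 16 and 15 in OE. Tested with limma on log2(FPKM + 1) over all 28422 genes above 0 in a library, 12 of 39 Hox genes were called higher at a Benjamini-Hochberg adjusted p under 0.05 and 0 lower. Over all genes 6.01% were called higher and 1.94% lower, and of the 16246 genes with a mean above 0 and under 1 FPKM, 2.8%. By class, 9 of 16 posterior, 3 of 15 central and 0 of 8 anterior genes were called; by cluster, 3 of 11 in A, 1 of 10 in B, 4 of 9 in C and 4 of 9 in D. In bulk pools, more cells with a transcript and more transcript per cell cannot be told apart.

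Posterior genes of paralogue group 13, which in later embryos pattern the tail end, the digits and the urogenital tract, had some of the largest differences. Hoxa13 (chr6:52257694-52260880) was at 0.0824 and 0.156 FPKM in CTR and 1.84 and 1.68 in OE (log2 change 1.304, SE 0.18, limma adjusted p = 0.00238). Hoxb13 (chr11:96194316-96197447) was at 0 and 0.450 FPKM in CTR and 1.79 and 1.62 in OE (log2 change 1.17, SE 0.14, adjusted p = 0.00147). Hoxc13 (chr15:102921103-102928814), a gene of hair and nail, was at 0.0264 and 0 FPKM in CTR and 1.31 and 1.007 in OE (log2 change 1.09, SE 0.13, adjusted p = 0.00148). For each of the 3 both OE libraries were above both CTR libraries. The other member of the group, Hoxd13, was at 0 and 0.101 FPKM in CTR and 0.740 and 0.679 in OE and was not called (log2 change 0.70, SE 0.29, limma adjusted p = 0.218).

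Next along the clusters came groups 9 to 11, which act in lower trunk and limb. Hoxc10 (chr15:102966796-102971893), a gene of hindlimb motor neurons, was at 0 and 0.0427 FPKM in CTR and 1.31 and 1.21 in OE (log2 change 1.15, SE 0.14, limma adjusted p = 0.00148). Hoxd9 (chr2:74697727-74700208) was at 0.121 and 0.0768 FPKM in CTR and 1.42 and 1.44 in OE (log2 change 1.14, SE 0.22, adjusted p = 0.0111). Hoxd11 (chr2:74679557-74687016), required with Hoxa11 for the forearm and the kidney, was at 0.151 and 0.0741 FPKM in CTR and 1.59 and 1.18 in OE (log2 change 1.09, SE 0.13, adjusted p = 0.00114). The groups did not overlap for any of the 3. Hoxd10 (chr2:74691924-74695105) was at 0.505 and 0.0916 FPKM in CTR and 1.63 and 1.22 in OE (log2 change 0.91, SE 0.21, adjusted p = 0.0243). Hoxa10 (chr6:52231197-52240854), known from uterus and femur, was at 0 and 0.162 FPKM in CTR and 0.850 and 0.491 in OE (log2 change 0.62, SE 0.11, adjusted p = 0.00864). Hoxc9 (chr15:102976439-102985099), a thoracic gene, was at 0.0536 and 0.104 FPKM in CTR and 0.657 and 0.506 in OE (log2 change 0.55, SE 0.05, adjusted p = 0.000288). Hoxc9 had the smallest log2 change and the smallest adjusted p of the 12. As for the other genes, its SE comes from the spread within all PR-DUB and KDM6B groups of the fit. Hoxc9 was at 0 in both libraries of PR-DUB CTR 2-cell, KDM6B CTR 2-cell and both KDM6B 4-cell groups, which add no spread.

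The 3 central genes called were Hoxa7, Hoxc8 and Hoxd8. Hoxa7 was at 0.221 and 0.488 FPKM in CTR and 1.47 and 1.81 in OE (log2 change 0.97, SE 0.19, limma adjusted p = 0.0143), which is below all of its 2-cell levels. Hoxc8 (chr15:102990607-102994111), a gene of brachial motor neurons, was listed at 0 in both CTR libraries and at 1.22 and 0.509 FPKM in OE (log2 change 0.87, SE 0.18, adjusted p = 0.0156). Hoxd8 (chr2:74704615-74707933) was at 0 and 0.0307 FPKM in CTR and 0.520 and 0.733 in OE (log2 change 0.68, SE 0.15, adjusted p = 0.0212). In cluster D the called genes Hoxd8, Hoxd9, Hoxd10 and Hoxd11 are neighbours, and the next gene, Hoxd12, was listed at 0 in all 4 libraries. Hoxc8 and Hoxc9 lie within the long annotated span of Hoxc5 on the same strand, and Hoxc10 overlaps its start. Hoxd10 and Hoxd11 overlap Gm28309 on the same strand, and Hoxd8 overlaps the antisense RNA Hoxd3os1. The values of these 6 genes depend on how reads were assigned.

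**Figure D3:**
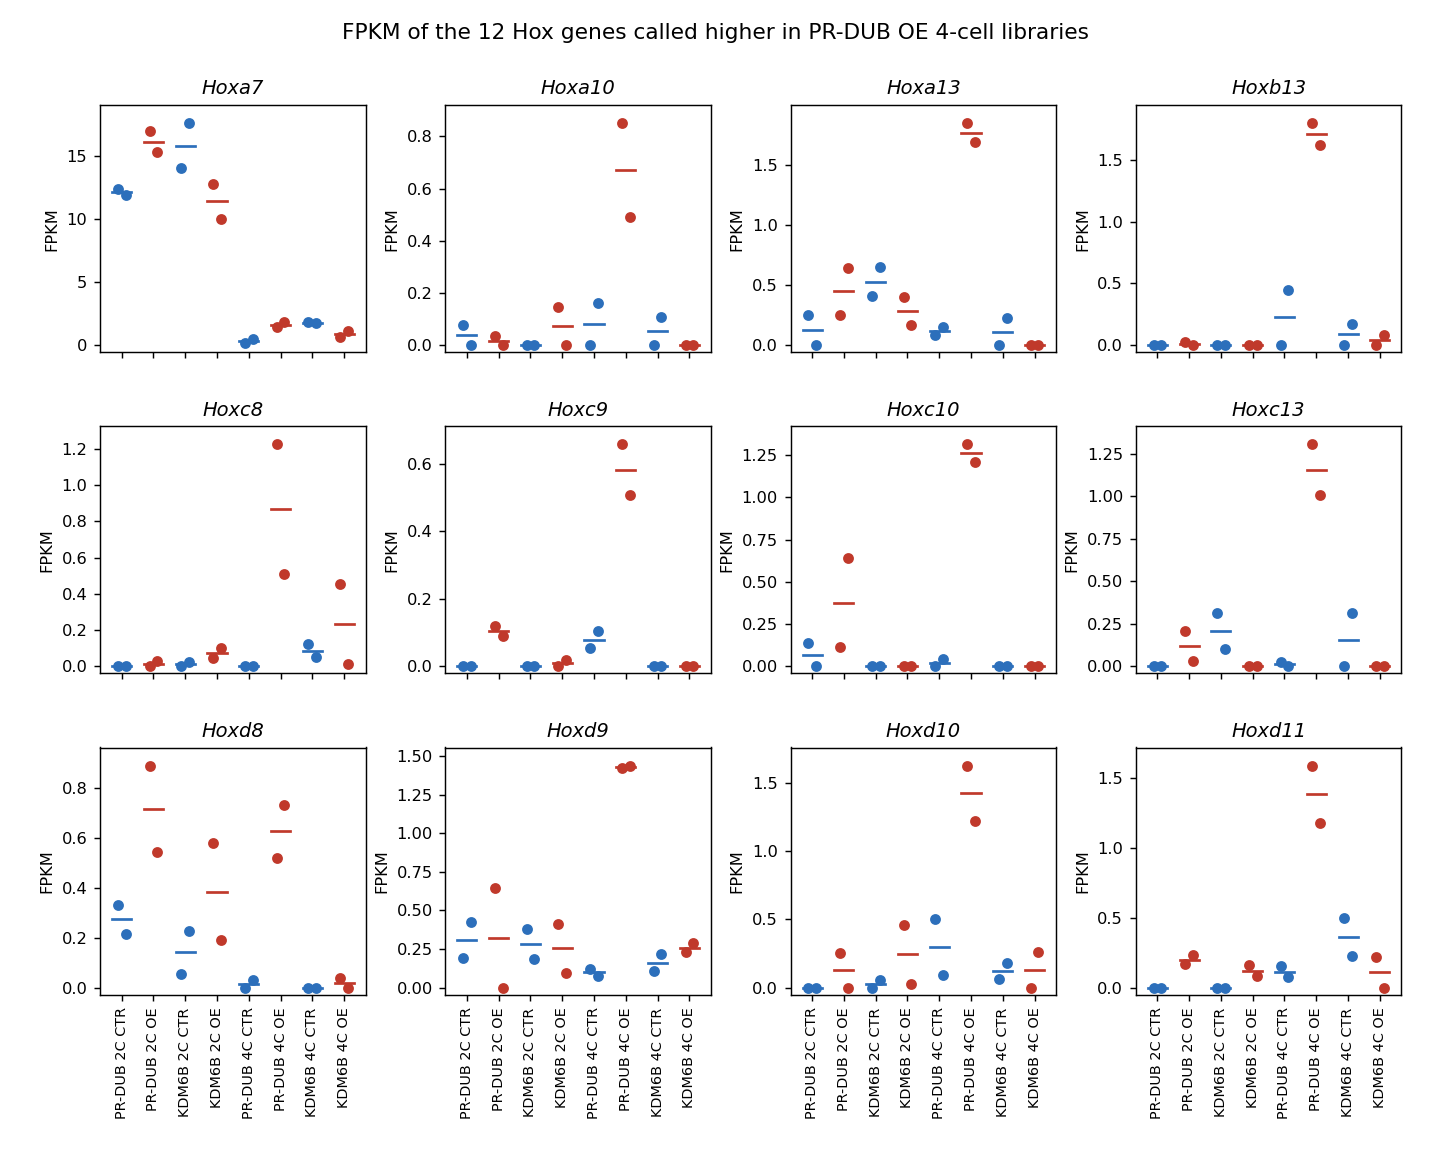
FPKM (linear axes from 0) of the 12 Hox genes called higher in PR-DUB OE 4-cell embryos, in each of the 16 PR-DUB and KDM6B libraries; points are libraries, lines group means, blue CTR and red OE. For 10 of the genes both PR-DUB OE 4-cell points lie above all other libraries shown; Hoxd8 is as high in PR-DUB OE 2-cell embryos, and Hoxa7 is highest at the 2-cell stage.

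Of the 27 members not called, 11 were above CTR in both OE libraries without a call, and 7 were listed at 0 in all 4 libraries. Hoxb9, the most abundant member in CTR, was at 1.60 and 2.64 FPKM there and 1.28 and 2.70 in OE, with overlapping values (log2 change -0.08, SE 0.40). The members listed at 0 were Hoxa2, Hoxa6, Hoxb5, Hoxb6, Hoxb8, Hoxd3 and Hoxd12. In all, OE was above CTR without overlap for 23 of 39 members and below it for 0. Over all genes the shares without overlap were 25.0% higher and 13.2% lower, and 12.6% higher among genes under a mean of 1 FPKM. At an unadjusted limma p under 0.05, 20 of 39 members differed, beside 5483 of the 28422 genes. The median log2 change of the 39 was 0.26, and that of the 28422 genes 0.

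The limits of these calls are as follows. Limiting the test to genes at 1 FPKM or more in 2 libraries leaves 12 members, of which 7 pass only through the PR-DUB OE 4-cell libraries; 8 were called, beside 12.3% of the 15055 genes called higher and 3.41% lower, and nothing is read from that count. Fitted on the 4 libraries of the contrast alone, limma called 0 of those 12 (adjusted p 0.0714 to 0.111 for the 8) and 3 of all 15055 genes. An unadjusted limma p under 0.05 was reached there by 10 of the 12 and by 4363 of the 15055 genes. Hoxa10, Hoxc8, Hoxc9 and Hoxd8 do not pass the filter and were not in that fit. Rescaling the libraries moved the median log2 change of the filtered genes from 0.13 to 0, took the calls over all 28422 genes from 1709 higher and 551 lower to 1124 and 929, and kept all 12 Hox calls. A pseudocount of 0.1 in place of 1 ended the calls of Hoxa10, Hoxd9 and Hoxd10, with 11 called. With same-numbered libraries as a block 8 were called, with Hoxa7, Hoxa10, Hoxd8 and Hoxd9 lost. Without CTR replicate 1, 10 members were called, with Hoxa7, Hoxc8 and Hoxd8 lost; without CTR replicate 2, 8, with Hoxc8, Hoxd8, Hoxd9 and Hoxd10 lost. Without OE replicate 1, 13 were called, with Hoxc8 and Hoxd10 lost, and without OE replicate 2, 14, with Hoxa7 and Hoxd8 lost. Hoxa10, Hoxa13, Hoxb13, Hoxc9, Hoxc10, Hoxc13 and Hoxd11 were called whichever of the 4 libraries was left out.

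Other measures moved with the Hox levels at this stage. Genes at 1 FPKM or more numbered 10855 and 11087 in CTR and 11801 and 11594 in OE, while the estimated depth was 15.3 and 12.03 M fragments in CTR and 12.3 and 12.2 in OE. Of 10 fibroblast markers, for cells that use Hox genes, 0 reached 1 FPKM in any of the 4 libraries, and their summed level was 0.705 and 1.73 FPKM in CTR and 2.102 and 2.12 in OE. Of these 10 markers, 7 and 6 were at 0 in CTR and 4 and 4 in OE. Dcn, Lum and Col3a1 were at 0 in all 4 libraries. Twist1 was at 0 in both CTR and at 0.990 and 0.854 FPKM in OE. Pdgfrb was at 0 in both CTR and above 0 in both OE, and Col1a2 was above 0 only in OE replicate 2 (0.690 FPKM). Of 12 cumulus markers 8 were at 0 in each of the 4 libraries (sums 29.1 and 34.1 FPKM in CTR, 31.9 and 34.9 in OE), and 6 blood markers summed to 0.915 and 1.42 FPKM in CTR and 2.01 and 0.481 in OE. The 5 oviduct epithelium markers summed to 16.0 and 12.4 FPKM in CTR and 32.2 and 32.2 in OE, mainly through Epcam (10.1 and 9.07, then 27.6 and 26.1 FPKM). Stage markers also separated the groups. The 9 oocyte markers summed to 1650 and 1550 FPKM in CTR and 1934 and 1854 in OE, and the 5 cleavage markers to 398 and 432 FPKM in CTR and 364 and 366 in OE. The 5 markers of the 2-cell stage (Zscan4 and Tcstv genes) overlapped, with sums of 106 and 80.3 FPKM in CTR and 109 and 34.2 in OE. The part of these measures in the Hox result was not tested.

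At the 2-cell stage PR-DUB OE libraries also held more Hox RNA than CTR, and 0 of the 39 members were called by limma, 8 having an unadjusted p under 0.05. Over all 28422 genes 0.584% were called higher and 0.162% lower, and 2851 had an unadjusted limma p under 0.05. The sum of the 38 members was 2.83 and 1.91 FPKM in CTR and 11.5 and 7.12 in OE, and members at 0.5 FPKM or more numbered 1 and 1, then 8 and 7. Genes at 1 FPKM or more numbered 10966 and 11025 in CTR and 11772 and 11553 in OE, while the 5 cleavage markers summed to 341 and 361 FPKM in CTR and 266 and 261 in OE and the 9 oocyte markers to 1248 and 1213, then 1102 and 1152. The part of these differences was not tested. OE was above CTR without overlap for 13 members and below it for 0, beside 21.5% and 10.8% of all genes and 13.3% higher of the genes under a mean of 1 FPKM.

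The differences of most members were small here, and those of the posterior gene Hoxb9 and the anterior gene Hoxd1 were among the largest. Hoxb9 (chr11:96271457-96276595) was at 0.0261 and 0.326 FPKM in CTR and 1.51 and 0.796 in OE (log2 change 0.87, SE 0.40). Hoxd1 was at 0.487 and 0.416 FPKM in CTR and 1.22 and 1.84 in OE (log2 change 0.79, SE 0.20, adjusted p = 0.13). The groups overlapped for neither gene. The 2 OE libraries lay apart, with an SD of 0.507 FPKM at a mean of 1.155 for Hoxb9 and of 0.442 at 1.53 for Hoxd1. Hoxa13, the gene with the largest log2 change at the 4-cell stage, was at 0.253 and 0 FPKM in CTR and 0.251 and 0.644 in OE at the 2-cell stage, with overlapping groups. Hoxa7 was at 12.4 and 11.9 FPKM in CTR and 17.0 and 15.3 in OE (log2 change 0.38, SE 0.19). Some members were called when either OE library was left out. Such a fit leaves 1 library in the group, and nothing is read from those calls. Rescaled, the genes called went from 166 higher and 46 lower to 110 and 54.

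**Figure D4:**
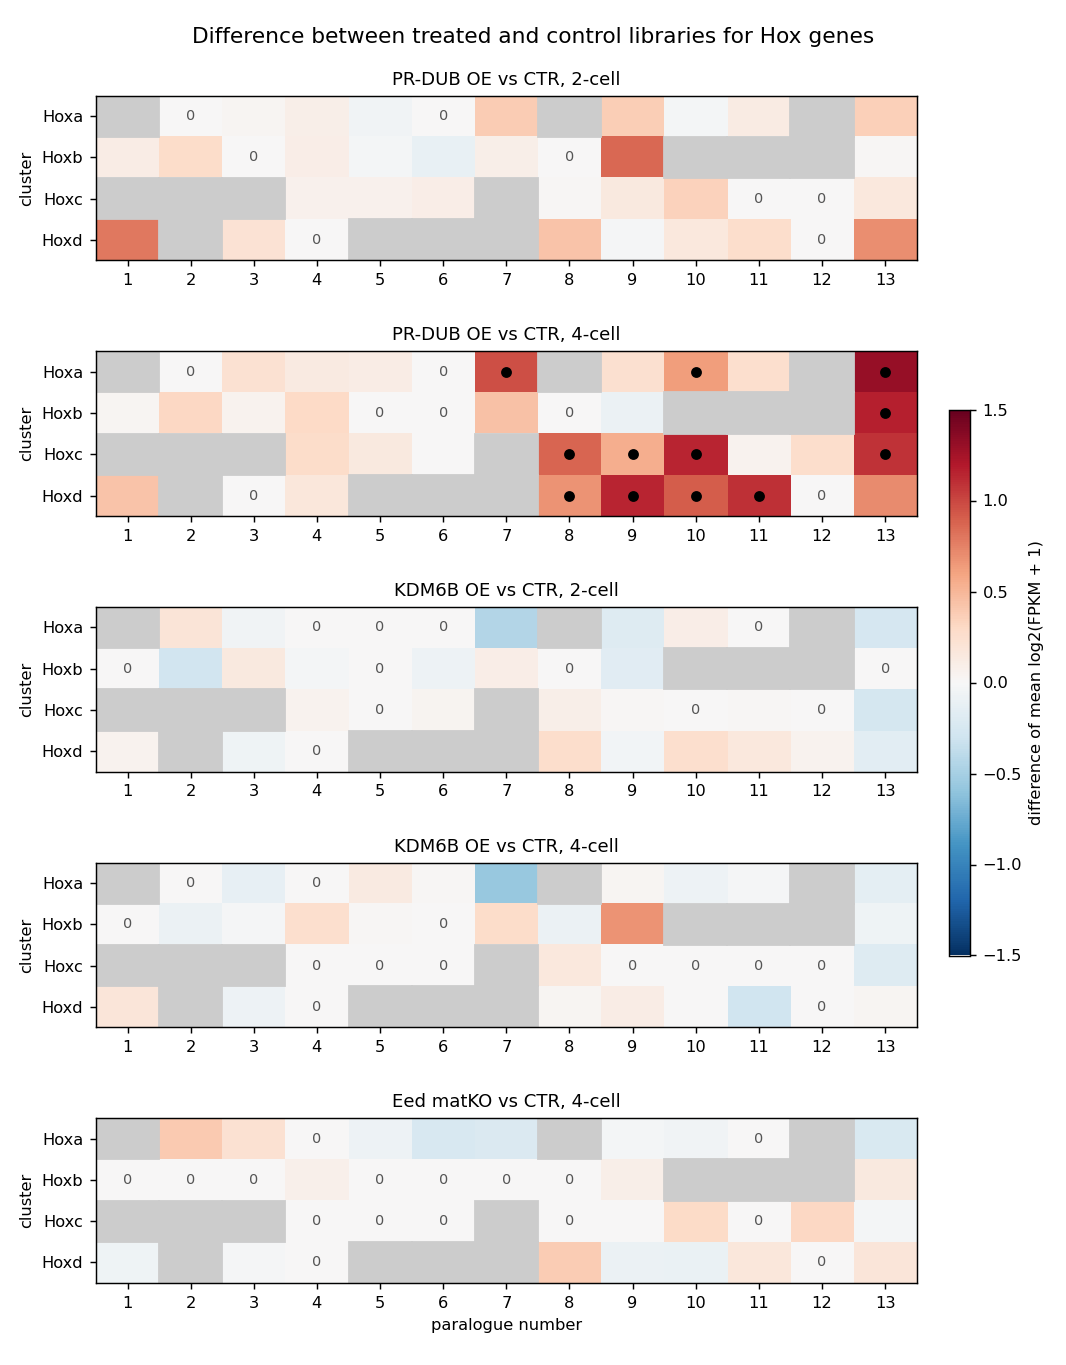
Difference of mean log2(FPKM + 1), treated minus control, for each Hox gene by cluster (rows) and paralogue number (columns) in 5 comparisons. Red is higher and blue lower in the treated libraries, grey marks paralogues that do not exist or are not reported, 0 marks genes listed at 0 in all 4 libraries, and black dots mark the 12 genes called by limma, all in the PR-DUB 4-cell panel.

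The PR-DUB differences at the 2 stages were compared directly, as the 4-cell difference minus the 2-cell one. Of the 39 members 3 were called, all with the greater rise at the 4-cell stage, beside 0.799% of all genes in that direction and 0.577% in the other. They were Hoxb13 (difference 1.15, SE 0.20, limma adjusted p = 0.0271), Hoxc13 (0.93, SE 0.19, adjusted p = 0.0474) and Hoxc9 (0.41, SE 0.07, adjusted p = 0.0231), on the log2 scale. Rescaled, the genes called went from 227 higher and 164 lower to 157 and 217, with 2 Hox genes. A pseudocount of 0.1 in place of 1 left 0 of the 3 calls, and so did a fit with same-numbered libraries as a block. With the filter on low values limma called 0 of 12, beside 1.03% of the 15055 genes higher and 0.711% lower. An unadjusted limma p under 0.05 was reached by 7 of the 12 and by 2634 of the 15055 genes. Of these 12 members, 7 pass the filter only through the PR-DUB OE 4-cell libraries, and nothing is read from these counts. The count depended on single libraries: it was 1 without either PR-DUB CTR 2-cell library, 5 without OE 2-cell replicate 1, 6 without OE 2-cell replicate 2, 9 without OE 4-cell replicate 2, and 2 or 3 without each of the other 3. Hoxd1 had the opposite sign (-0.36) without a call. So did Hoxb9, with a log2 change of 0.87 at the 2-cell stage and -0.08 at the 4-cell stage.

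No Hox gene was called by limma between the libraries labelled KDM6B OE and those labelled KDM6B CTR, with 0 of 39 at the 2-cell stage (3 at an unadjusted p under 0.05) and 0 at the 4-cell stage (2 unadjusted). Kdm6b RNA was as high in the CTR libraries as in OE, as given above, and what the CTR embryos were given is not stated. Each direction here is therefore between labels. Over all genes 0.225% were called higher and 0.141% lower at the 2-cell stage, and 0.13% and 0.243% at the 4-cell stage. Of the 28422 genes, 2711 had an unadjusted limma p under 0.05 at the 2-cell stage and 2335 at the 4-cell stage. The 38 members summed to 4.89 and 5.01 FPKM in CTR and 5.50 and 3.52 in OE at the 2-cell stage, and to 1.91 and 2.02, then 4.07 and 1.92, at the 4-cell stage. The ranges of the 2 labels overlapped at both stages. Rescaled, the genes called at the 2-cell stage went from 64 higher and 40 lower to 68 and 75, with 0 Hox genes in either.

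At the 2-cell stage the differences of Hoxa7 and Hoxb2 were among the largest. Hoxa7 was at 14.01 and 17.6 FPKM in CTR and 12.8 and 9.999 in OE (log2 change -0.44, SE 0.19). Hoxb2, a hindbrain gene, was at 0.302 and 0.398 FPKM in CTR and 0.115 and 0.103 in OE (log2 change -0.28). At the 4-cell stage the largest were those of Hoxb9 at 0.399 and 0 FPKM in CTR and 1.69 and 0.319 in OE (log2 change 0.67, SE 0.40), Hoxa7 at 1.86 and 1.73, then 0.632 and 1.16 (-0.57, SE 0.19, adjusted p = 0.374), and Hoxd11 at 0.4996 and 0.228, then 0.217 and 0 (-0.30, SE 0.13, adjusted p = 0.549). Hoxb9 rests on 1 OE library, while for Hoxa7 both OE libraries were below both CTR libraries at each stage. OE lay above CTR without overlap for 3 members at the 2-cell stage and 1 at the 4-cell stage, and below it for 6 and 2, beside 14.8% and 10% of all genes above and 13.9% and 13.4% below. Single members were called when some of the libraries were left out. Those fits leave 1 library in a group, and nothing is read from those calls.

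The 2 manipulations were compared at the 4-cell stage as the PR-DUB difference minus the KDM6B one. Of 39 members 8 were called with the PR-DUB difference higher and 0 lower by limma, beside 3.25% of all genes higher, 1.04% lower, and 1.53% higher among the genes under a mean of 1 FPKM. Kdm6b RNA overlapped between the 2 KDM6B labels at the 4-cell stage, so it shows no direction for the KDM6B term. It does not show that the labels were exchanged either. The values are given with those labels as they stand and exchanged, which only turns the sign of the KDM6B term. With the labels as given, the differences were 1.54 for Hoxa7 (SE 0.27, adjusted p = 0.0145), 1.45 for Hoxa13 (SE 0.25, adjusted p = 0.0127) and 1.39 for Hoxd11 (SE 0.18, adjusted p = 0.00393). Hoxc13, Hoxb13, Hoxc10, Hoxa10 and Hoxc9 followed with 1.28, 1.23, 1.15, 0.70 and 0.55. Hoxb9 had the opposite sign (-0.75) and was not called. With the KDM6B labels exchanged, 5 of the 8 were called (Hoxa13 at 1.16, Hoxc10 at 1.15, Hoxb13 at 1.11, Hoxc13 at 0.89 and Hoxc9 at 0.55), and Hoxd11 (0.80, limma adjusted p = 0.0569), Hoxa10 (0.55, 0.115) and Hoxa7 (0.39, 0.56) were not. With a pseudocount of 0.1 and the labels as given, 5 were called (Hoxa7, Hoxc9, Hoxc10, Hoxc13 and Hoxd11). With same-numbered libraries as a block 1 was called (Hoxd11). All 8 are among the 12 called between PR-DUB OE and CTR. Both comparisons hold the same PR-DUB libraries, so this overlap is not separate evidence. The labels list another sequencer entry for the KDM6B 4-cell libraries than for the PR-DUB ones, and sequencer and experiment cannot be told apart. Rescaled, the genes called went from 924 higher and 297 lower to 520 and 492, and 7 of the 8 Hox genes were kept, without Hoxa10. With the filter on low values 6 of 12 members were called, beside 7.24% of the 15055 genes higher and 2.03% lower; 5 of the 6, all but Hoxa7, pass that filter only through the PR-DUB OE 4-cell libraries, and nothing is read from that count. Fitted on its 8 libraries alone with the filter on low values, limma called 0 of 12 members and 0 of the 15055 genes. An unadjusted limma p under 0.05 was reached there by 9 of the 12 and by 3237 of the 15055 genes, and nothing is read from these counts either.

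In embryos of Eed CKO mothers no Hox gene was called by limma. Of the 39 members 16 were listed at 0 in all 4 libraries, 0 of the other 23 had an unadjusted p under 0.05, and 0 reached 1 FPKM in 2 libraries. Over all 22917 genes above 0, 0.0% were called in either direction, and 1444 had an unadjusted limma p under 0.05. The largest differences were those of Hoxa2, a gene of the second pharyngeal arch, at 0 in both CTR libraries and 0.0897 and 0.579 FPKM in matKO (log2 change 0.39), Hoxd8 at 0.450 and 0.169 FPKM in CTR and 0.977 and 0.448 in matKO (0.38), and Hoxc12 at 0 in both CTR and 0 and 0.548 FPKM in matKO (0.32). The 38 members summed to 3.58 and 1.37 FPKM in CTR and 3.72 and 3.91 in matKO. The members at 0.5 FPKM or more were 0 and 1 in CTR and 2 and 3 in matKO. Without overlap matKO was above CTR for 3 members and below it for 3, beside 15.2% and 16.5% of all genes. With 2 libraries a group, an exact permutation test of a single gene cannot go below p = 0.333, in this comparison as in the others. Blood markers, 2 of 6 of them at 1 FPKM or more, summed to 3.73 and 2.78 FPKM in CTR and 7.79 and 4.53 in matKO, a difference whose part was not tested.

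Between MII oocytes and late 2-cell embryos 1 Hox gene was called higher and 2 lower of 29 fitted, in a comparison where 23.6% of all 27054 genes were called higher and 24.6% lower. Hoxb9 was listed at 0 in both MII libraries and at 0.242 and 0.168 FPKM in late 2-cell embryos (log2 change 0.27, SE 0.05, limma adjusted p = 0.0182). Hoxd9 fell from 0.633 and 1.38 FPKM to 0 and 0.0807 (log2 change -0.92, SE 0.22, adjusted p = 0.0345). Hoxb4, known from blood stem cells, fell from 0.464 and 0.318 FPKM to 0.0649 and 0.0676 (log2 change -0.38, SE 0.08, adjusted p = 0.0231). Hoxd1 was at 0.115 and 0.411 FPKM in MII oocytes and 0.626 and 0.744 in late 2-cell embryos (log2 change 0.43) and was not called. Hoxa7 was not called either (log2 change -0.32, from 10.3 and 13.5 to 9.54 and 8.91 FPKM). The count was 5 without MII replicate 1, 4 without MII replicate 2, 7 without late 2-cell replicate 1 and 6 without late 2-cell replicate 2, and each of the 3 calls was lost without at least 1 library. Without overlap, late 2-cell embryos were above MII oocytes for 6 members and below for 10, beside 34.9% and 35.1% of all genes. With the filter, Hoxa7 was the 1 member tested, beside 38% of 13237 genes called higher and 44.6% lower. Rescaling moved the median log2 change of the filtered genes from -0.20 to 0.05 and that of Hoxa7 from -0.32 to -0.04.

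From the 2-cell to the 4-cell stage of PR-DUB CTR embryos Hoxa7 fell and Hoxb9 rose, and 0 of the other 37 members were called, beside 14.2% of all genes called higher and 15.5% lower. Hoxa7 went from 12.4 and 11.9 FPKM to 0.221 and 0.488 (log2 change -3.29, SE 0.19, limma adjusted p = 7.63e-07), 34.3-fold lower by the means. Hoxb9 went from 0.0261 and 0.326 FPKM to 1.60 and 2.64 (log2 change 1.40, SE 0.40, adjusted p = 0.0232). With the filter on low values, where 26.5% of the genes were called higher and 30.2% lower, its call was lost without CTR 2-cell replicate 1 or without CTR 4-cell replicate 2 (adjusted p = 0.0565 and 0.0639). The rise of Hoxb9 was not seen in KDM6B CTR embryos, with 0.623 and 0.368 FPKM at the 2-cell stage and 0.399 and 0 at the 4-cell stage. Hoxa7 was lower at the 4-cell stage there too (14.01 and 17.6, then 1.86 and 1.73 FPKM). In PR-DUB CTR the 38 members together summed to 2.83 and 1.91 FPKM at the 2-cell stage and 3.64 and 5.02 at the 4-cell stage. Without overlap, 4-cell embryos were above 2-cell embryos for 5 members and below for 6, beside 25.4% and 25.8% of all genes. This comparison and the PR-DUB OE comparisons share the CTR libraries.

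Genes that work with, read or regulate the Hox clusters were taken as lists. The cofactors Pbx, Meis and Pknox bind DNA together with Hox proteins; of 9, 6 passed the filter on low values and 0 passed in 4-cell PR-DUB OE against its CTR, where 12.3% of all genes tested were called higher and 3.41% lower. Their upstream regulators (Cdx genes, retinoic acid receptors, Gdf11 and others) had 3 of 12 tested and 0 called in the same comparison. So few genes were tested that nothing is read from these counts. Cdx2, which activates central Hox genes, was at 0.370 and 0.843 FPKM in PR-DUB CTR and 0.748 and 1.11 in OE 4-cell embryos. The even-skipped homologue Evx2 beside cluster D was at 0.0787 FPKM or less in the PR-DUB 4-cell libraries, and Evx1 beside cluster A at 0.560 or less.

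Genes just outside the clusters were called about as often as all genes in PR-DUB OE 4-cell embryos. Of 22 flanking genes tested, 3 were called higher and 0 lower by limma in PR-DUB OE 4-cell embryos, with a median log2 change of 0.24, beside 12.3% of the 15055 genes called higher and a median of 0.13. Copz1, a coatomer subunit, went from 8.31 and 8.44 to 21.7 and 19.9 FPKM (log2 change 1.22, SE 0.15, adjusted p = 0.000832), Hibadh, an enzyme of valine breakdown, from 1.72 and 1.11 to 3.79 and 4.82 FPKM (1.14, SE 0.29, adjusted p = 0.0217), and Nfe2l2, the NRF2 stress factor, from 1.37 and 1.74 to 4.47 and 2.85 FPKM (0.85, SE 0.25, adjusted p = 0.0366). At the 2-cell stage Atf2 was called higher (85.6 and 83.4 to 176 and 140 FPKM, log2 change 0.89, SE 0.17, adjusted p = 0.0316), beside 0.983% of the 15055 genes called higher and 0.193% lower.

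Of 24 Polycomb and trithorax genes 23 were tested in PR-DUB OE 4-cell embryos, and 4 were called higher and 1 lower by limma, beside 12.3% and 3.41% of all 15055 genes, so the counts are near the shares over all genes and the values below describe single genes. Rnf2, the PRC1 ubiquitin ligase, went from 44.8 and 47.5 to 86.3 and 72.6 FPKM (log2 change 0.77, SE 0.14, adjusted p = 0.00495). Bmi1 and Phc1, subunits of canonical PRC1, went from 41.4 and 44.9 to 62.0 and 63.5 FPKM (0.53, SE 0.11, adjusted p = 0.0076) and from 2.26 and 3.01 to 6.42 and 5.04 FPKM (0.89, SE 0.20, adjusted p = 0.0115). Men1, a subunit of KMT2 complexes, went from 1.26 and 1.10 to 4.11 and 4.31 FPKM (1.26, SE 0.29, adjusted p = 0.0128). Asxl2, a PR-DUB subunit, fell from 40.4 and 36.9 to 20.9 and 24.6 FPKM (-0.74, SE 0.18, adjusted p = 0.0185). Bap1, the catalytic subunit of PR-DUB, was at 6.02 and 6.20 FPKM in CTR and 10.6 and 8.81 in OE without a call. Asxl1, another PR-DUB subunit, was at 12.86 and 12.24 FPKM in CTR and 7.596 and 10.85 in OE, also without a call. At the 2-cell stage 0 of the 23 passed for PR-DUB OE, beside 0.983% of all genes higher and 0.193% lower.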

How the data were processed

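Reads were paired, from a stranded SMART-Seq kit per the labels. Trim Galore 0.6.5, HISAT2 2.1.0, StringTie 1.3.3b and mm10 are named per the submitters' processing notes. The authors deposited FPKM per gene in 3 tables (16 PR-DUB and KDM6B libraries, 4 Eed libraries, 4 MII and late 2-cell libraries), each analysed separately, with 0 columns left unused. For annotation release and strand setting, the sources used here state nothing; 45143, 45143 and 55394 gene IDs matched GENCODE vM21. Sequences are RefSeq's (GRCm38.p6).

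FPKM was taken as log2(FPKM + 1), which understates the change of low genes, and tested with limma 3.58.1 in R 4.3.3 (all groups of a table in 1 fit, moderated variances with a mean trend, Benjamini-Hochberg adjusted p under 0.05 over all genes; 8 residual degrees of freedom for 16 libraries and 2 for 4). The planned fit used genes at 1 FPKM or more in 2 libraries. The text leads with all genes above 0 in a library, because 7 of the 12 members that passed the filter did so only through PR-DUB OE 4-cell libraries; related lists are from the filtered fit. The procedure was tested on simulated data. Depth was estimated from the smallest FPKM step, and holds only if that step is 1 fragment. A member of the family and an RNA that overlaps it are counted but not reported singly here. The members and lists were chosen with earlier results of these data known. Genes named are the called members, and otherwise those with the largest log2 changes; Hoxb9, Hoxd13 and other uncalled members named beside them were chosen after their values were seen. Alternatives were another pseudocount, the filter, rescaled libraries, no variance trend, a replicate block, exchanged KDM6B labels, the libraries of a contrast alone, and leaving out each library.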

Additional observations from a re-analysis of the deposited data

Results flagged for a closer look

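Differences between the PR-DUB responses at the 4-cell and 2-cell stages, tested directly with limma on log2(FPKM + 1), passed the threshold for Hoxb13 (1.15), Hoxc13 (0.93) and Hoxc9 (0.41), with the greater rise at the 4-cell stage. With a pseudocount of 0.1 in place of 1 none of the 3 passed.

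Differences between the PR-DUB and KDM6B responses of 4-cell embryos, tested the same way, passed for 8 genes, each with the PR-DUB value higher. They were 1.54 for Hoxa7, 1.45 for Hoxa13, 1.39 for Hoxd11, 1.28 for Hoxc13, 1.23 for Hoxb13, 1.15 for Hoxc10, 0.70 for Hoxa10 and 0.55 for Hoxc9. Kdm6b RNA was as high in the libraries labelled KDM6B CTR as in OE; with those labels exchanged 5 of the 8 passed, and Hoxa7 (0.39), Hoxa10 (0.55) and Hoxd11 (0.80) did not. With a pseudocount of 0.1, 5 passed. With 2 libraries a group, no group was large enough for a search for outlying samples.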

How the results depend on the processing

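Of the values of single called genes under all alternatives, 347 kept their direction and side of the threshold, 82 fell short of it, 1 newly passed it and 0 changed sign. The alternatives without the filter on low values were chosen after seeing the data, other than the plain fit on all genes. With the filter, the libraries of the contrast alone gave 0 calls in place of 8 for PR-DUB at the 4-cell stage and 0 in place of 6 for PR-DUB minus KDM6B, and a pseudocount of 0.1 gave 3 for the latter. Without the filter, late 2-cell against MII gave 3 in place of 0, and PR-DUB 4-cell minus 2-cell 3 in place of 0. On all genes, a pseudocount of 0.1 gave 4 in place of 2 for PR-DUB CTR 4-cell against 2-cell, 0 in place of 3 for 4-cell minus 2-cell and 5 in place of 8 for PR-DUB minus KDM6B. With the KDM6B labels exchanged, the last was also 5. The cause was not tested.

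Whether replicate numbers pair the libraries is not stated. Deviations of same-numbered libraries correlated at -0.062 to 0.037, a measure that cannot settle it. With the replicate block, 1 member was called for PR-DUB minus KDM6B with the filter (6 without the block) and 1 on all genes (8), 0 for 4-cell minus 2-cell on all genes (3), and 8 for PR-DUB at the 4-cell stage on all genes (12).

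Leaving out 1 library gave, on all genes, 0 to 4 calls for PR-DUB at the 2-cell stage, 8 to 14 at the 4-cell stage, 0 to 1 for KDM6B at each stage, 4 to 7 for late 2-cell against MII, 1 to 9 for 4-cell minus 2-cell and 7 to 12 for PR-DUB minus KDM6B. With the filter it gave 6 to 7 for PR-DUB at the 4-cell stage, 1 to 2 for PR-DUB CTR between stages and 3 to 6 for PR-DUB minus KDM6B. A group left with 1 library was assumed to vary like the others. The share of all genes called in these fits is not given, so these counts show only how far the calls depend on single libraries. Most members rest on few fragments, which limits what low levels can show.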
